A study of Mus musculus with 4 samples.

Results

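Adipogenic genes were examined across the cell types recovered from mouse femurs, and compared between the reticular cells of intact and ablated marrow. The 10 genes were chosen by symbol: Adipoq, Lepr, Lpl, Pparg, Cebpa, Cebpb, Cebpd, Apoe, Fabp4 and Plin2. Of these, 9 were found among the 28006 features of the count tables. Cebpd was not analysed here.

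The cells came from Cxcl12-iCreER; R26R(tdTomato/+) mice, in which a bacterial artificial chromosome transgene of a single line drives tamoxifen-inducible recombinase from Cxcl12 regulatory sequence and so marks Cxcl12-expressing cells with tdTomato. All mice received tamoxifen 7 days before surgery. By the study's methods CONT is the contralateral femur and ABL the femur whose marrow was mechanically ablated 7 days before the sort, so CONT cells would also come from operated mice. Each condition had 2 single-cell RNA-seq libraries of tdTomato+ cells, 1 per biological replicate (CONT1, ABL1, CONT2 and ABL2). The first pair was built with the v2 kit of the Chromium system and the second with its v3 kit, and an effect of the replicate cannot be told apart from one of the kit. Replicate 1 was pooled from several mice. The age of the mice is not given in the labels.

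The libraries held 22889380 to 44784072 unique molecular identifiers (UMIs), and 9833 barcodes were called as cells, with medians of 5714 to 12895.5 UMIs. Mesenchymal cells numbered 5844, and 3591 of them fell in clusters named reticular-like from markers that include none of the 10 genes (reticular-like cells numbered 1166 in CONT1, 402 in ABL1, 1715 in CONT2 and 308 in ABL2). The 9 reticular markers, among them Cxcl12, Kitl, Foxc1 and Ebf3, together reached 24286 to 25584 CPM (the UMIs of a gene divided by all UMIs of the summed cells and scaled to a total of 1e6) in these cells, and none of the 9 was at 0 in any library. A tdTomato UMI was present in 94.2% to 98.0% of reticular-like cells. The neutrophil, monocyte/macrophage, B and erythroid classes together held 1911 cells in CONT1, 654 in ABL1, 246 in CONT2 and 445 in ABL2. A tdTomato UMI was present in 29.2%, 35.9%, 24.4% and 59.8% of these. Its level was 1156 to 2097 CPM in reticular-like cells. It was lower in neutrophil-lineage (50.5 to 353 CPM), monocyte/macrophage-like (201 to 409), B-lineage (35.2 to 121) and erythroid cells (24.0 to 118). How many of these UMIs came from RNA outside the cells was not tested. Endothelial-like cells held 1175 to 1979 CPM, so a high level was not particular to reticular-like cells. Xist, a marker of female cells, was found in 78.9% and 0.325% of reticular-like cells in ABL1 and ABL2, and in 47.2% and 69.0% in CONT1 and CONT2. A Y-linked UMI was found in 30.7% of CONT1, 13.9% of ABL1, 29.6% of CONT2 and 62.7% of ABL2 reticular-like cells. The sexes were therefore unequal between the libraries of each replicate, most in replicate 2, where cells of female mice made up much of CONT2 and were almost absent from ABL2. This goes against CONT2 and ABL2 being femurs of 1 set of mice, so differences within replicate 2 below are between libraries with the same kit and replicate number, not between the femurs of shared mice. A comparison restricted to cells with a Y-linked UMI and no Xist UMI is given below for Lepr, Plin2, Fabp4 and Pparg and for counts of genes. It is not given for other single genes. CONT1 and ABL1 shared 5 cell barcodes and CONT2 and ABL2 shared 1. Clusters that stayed unnamed held 3.12% of mesenchymal cells in CONT1, 9.61% in ABL1, 14.4% in CONT2 and 23.3% in ABL2, and the reticular share of mesenchymal cells was 17.0% in ABL2 against 88.6% in CONT1, 83.5% in CONT2 and 60.4% in ABL1.

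Adipogenesis is run by a cascade of transcription factors. The C/EBP factors Cebpb and Cebpd act early and induce Cebpa and Pparg, the nuclear receptor that holds the adipocyte state, and these in turn switch on genes for lipid uptake, transport and storage. Bone marrow reticular cells, which support hematopoietic cells through Cxcl12 and Kitl, are known to carry parts of this program, and the leptin receptor Lepr and the adipokine Adipoq serve as markers of marrow stroma.

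Of the 10 genes, 7 had a promoter in the RefSeq table of GRCm38.p6. Pparg had several windows, and the one at chr6:115421816-115422065 on the plus strand is shown. C/EBP factors are known to act on Pparg, and this window was picked because it alone held a match. The Adipoq promoter at chr16:23146286-23146535 on the plus strand is shown because Adipoq was the most even member across the reticular-like cells of the 4 libraries. Both are the 250 bases before the start, and capitals mark the C/EBP core TTGCNNAA, searched on both strands.
Pparg: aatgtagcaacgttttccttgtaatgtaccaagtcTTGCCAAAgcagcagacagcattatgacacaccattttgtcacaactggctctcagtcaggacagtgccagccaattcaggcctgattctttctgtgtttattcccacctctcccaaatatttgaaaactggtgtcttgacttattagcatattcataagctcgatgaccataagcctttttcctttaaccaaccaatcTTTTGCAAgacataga
Adipoq: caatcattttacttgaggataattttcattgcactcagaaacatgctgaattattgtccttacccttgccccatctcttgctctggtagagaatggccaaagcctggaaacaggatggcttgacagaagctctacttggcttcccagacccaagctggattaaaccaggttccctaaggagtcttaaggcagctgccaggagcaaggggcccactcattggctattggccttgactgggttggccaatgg
The core occurred 2 times in this Pparg window, 215 and 16 bases before the start, and did not occur in the Adipoq window or in any other listed window of the members. Those without it include the Pparg windows at chr6:115360894-115361143 and chr6:115362099-115362348. The core was present in 9.56% of the 32851 promoter windows of the same length, so a single member window with matches is not read as a result. The matches are letters in a window, and counts from the 3' end of transcripts do not tell which Pparg start was used.

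Levels were first set across the 11 cell classes that had at least 10 cells in a library. Adipoq, Lepr, Lpl, Cebpa and Cebpb had their highest mean level in reticular-like cells, while Apoe and Plin2 were highest in monocyte/macrophage-like cells and Pparg and Fabp4 in endothelial-like cells. The classes come from clustering the same cells, so these levels are a description with no test. The members themselves were left out of the clustering.

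Adipoq, the fat-derived hormone adiponectin, reached 2226 CPM in CONT1, 2116 in ABL1, 1976 in CONT2 and 2060 in ABL2 reticular-like cells (chr16:23146536-23158028, plus strand, GRCm38). Its next class, pre-osteoblast-like cells, ranged from 2.91 to 703 CPM over 3 libraries, so the ranges did not overlap. In neutrophil-lineage cells, which should lack the gene, Adipoq was at 14.4 to 142 CPM. Among the reticular-like cells thinned to 2000 UMIs each, 84.4% to 91.3% carried an Adipoq UMI, against 0.935% to 11.3% of neutrophil-lineage cells thinned the same way. Before thinning the reticular shares were 92.9% to 98.9%, at medians of 4505 to 13180 UMIs per cell beside 6452.5 to 9767.5 in neutrophil-lineage cells. Free RNA gives UMIs to cells that do not make a transcript, and the neutrophil share is read as that background. Free RNA was estimated at 8.61%, 9.74%, 0.833% and 7.17% of the reticular-like UMIs of CONT1, ABL1, CONT2 and ABL2.

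Lpl, which encodes lipoprotein lipase that frees fatty acids from circulating lipoproteins (chr8:68880491-68907448, plus strand), was at 2559 CPM in CONT1, 2661 in ABL1, 5085 in CONT2 and 4315 in ABL2 reticular-like cells. The 2 libraries of replicate 2 were both above those of replicate 1. Periosteal-like cells came next at 62.1 to 1775 CPM, below the reticular range. An Lpl UMI was seen in 94.8% to 98.6% of thinned reticular-like cells and in 5.61% to 11.9% of neutrophil-lineage cells.

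Lepr, the leptin receptor (chr4:101717404-101815352, plus strand), was at 1241 CPM in CONT1, 711 in ABL1, 2186 in CONT2 and 628 in ABL2 reticular-like cells. Its range overlapped that of periosteal-like cells, in which it was at 1774 CPM in CONT2 (33 cells) and 11.3 CPM in ABL2 (504 cells). Pre-osteoblast-like cells held 3.63 to 395 CPM.

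The C/EBP genes differed in how they were spread over the classes. Cebpa (chr7:35119293-35121928, plus strand) was at 155 to 205 CPM in reticular-like cells, 14.3 to 237 in pre-osteoblast-like cells and up to 167 in monocyte/macrophage-like cells, and neighbours in this order overlapped. Cebpb (chr2:167688915-167690418, plus strand) was at 1262 to 3003 CPM in reticular-like cells, and pre-osteoblast-like, monocyte/macrophage-like, periosteal-like, neutrophil-lineage and endothelial-like cells followed with overlapping ranges between 242 and 1699 CPM. A Cebpb UMI was present in 47.7% to 70.3% of thinned neutrophil-lineage cells and in 75.0% to 88.1% of reticular-like cells.

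Pparg (chr6:115360951-115490399, plus strand) was low in reticular-like cells, at 50.7 CPM in CONT1, 48.0 in ABL1, 50.1 in CONT2 and 57.4 in ABL2. Endothelial-like cells lay above this range at 96.3 to 145 CPM, and monocyte/macrophage-like cells below it at no more than 27.9 CPM. Neutrophil-lineage cells had 0 to 2.91 CPM. A Pparg UMI was found in 8.75% to 9.74% of thinned reticular-like cells (20.8% to 42.8% before thinning). Neutrophil-lineage cells carried one in 0.555% of CONT1 cells and in 0 of 320 ABL1, 0 of 118 CONT2 and 0 of 107 ABL2 cells, where 3 counts would give 0.938%, 2.54% and 2.80%, a limit on thinned cells with a UMI and not on cells that express Pparg.

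Apoe, the lipid carrier apolipoprotein E (chr7:19696109-19699188, minus strand), was at 3755 to 5418 CPM in reticular-like cells and 3487 to 15557 CPM in monocyte/macrophage-like cells, and these ranges overlapped. Fabp4, the fatty acid binding protein of adipocytes and capillary endothelium (chr3:10204088-10208576, minus strand), was at 4616 to 6764 CPM in endothelial-like cells. In reticular-like cells Fabp4 was at 8.87 to 42.5 CPM in 3 libraries and at 884 CPM in ABL2. Plin2, a lipid droplet coat protein (chr4:86648386-86670060, minus strand), was at 261 to 495 CPM in monocyte/macrophage-like, 120 to 215 in endothelial-like and 34.3 to 98.3 CPM in reticular-like cells.

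**Figure D1:**
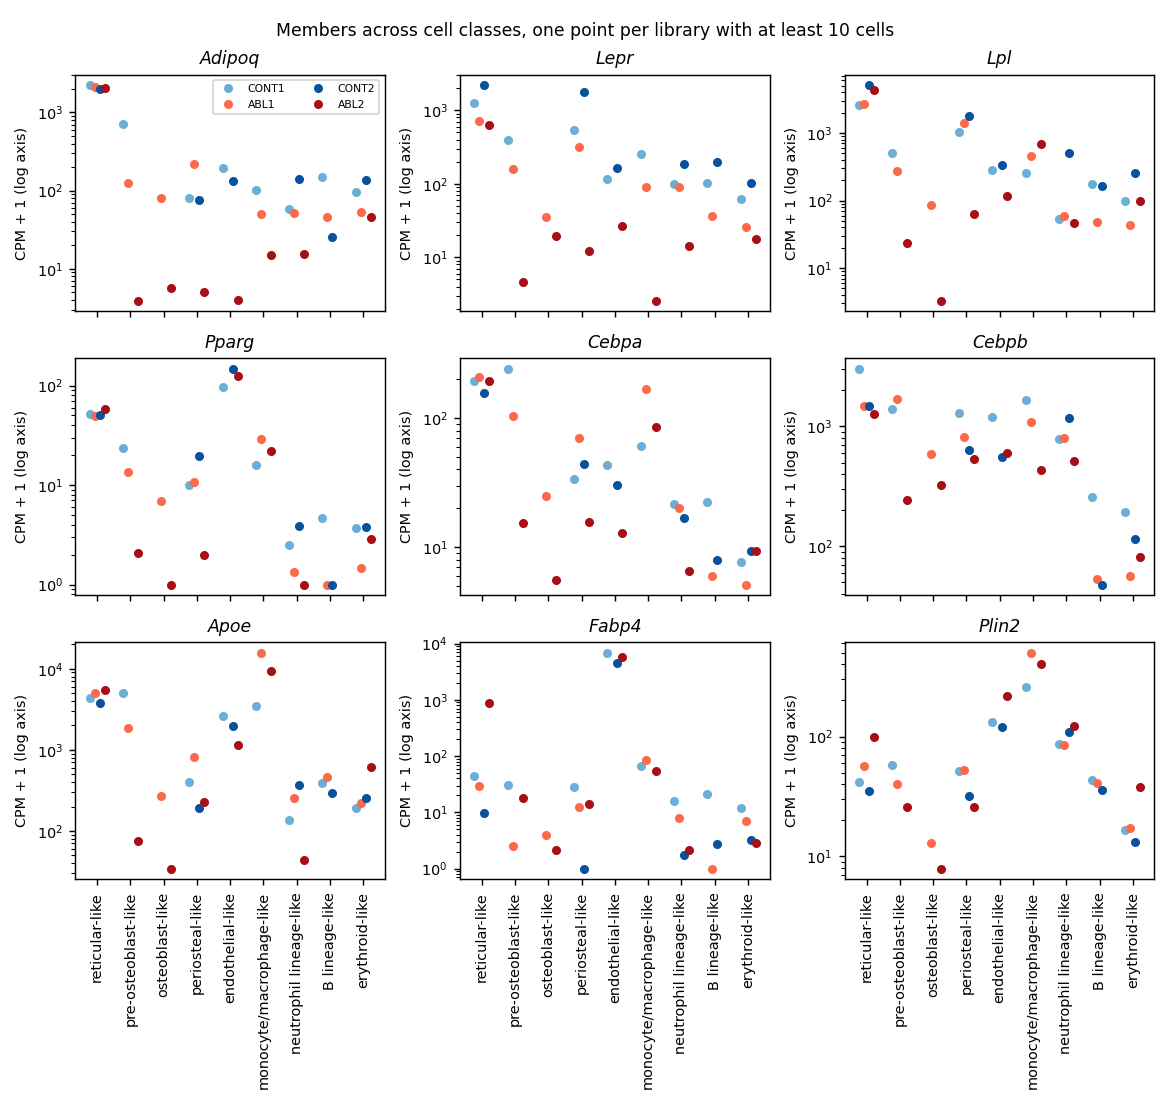
Levels of the 9 members in 9 cell classes (x axis) as CPM plus 1 on a log axis, with 1 point for each library with at least 10 cells of the class. Adipoq and Lpl are highest in reticular-like cells in all 4 libraries, while Fabp4 is highest in endothelial-like cells and Plin2 in monocyte/macrophage-like cells, each in the 3 libraries with at least 10 cells of the class.

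The same 9 genes were not equally alike over the 32 sums of a class in a library. The Pearson correlation of log2(CPM + 10) was highest for Cebpa with Apoe (0.83), Adipoq with Lepr (0.82), Lepr with Lpl (0.81) and Pparg with Fabp4 (0.81), and lowest for Adipoq with Plin2 (0.02). Among genes outside the list, Kng1 (0.97) and Esm1 (0.95) were most like Adipoq, Aldh1a2 (0.93) and Col6a5 (0.92) most like Lepr, Cyp1b1 (0.88) and Ksr1 (0.87) most like Lpl, Plxnd1 (0.94) and Sult1a1 (0.93) most like Pparg, and Tns3 (0.92) and Lgals3bp (0.92) most like Cebpa. Ifitm3 (0.88) and Tnfrsf1a (0.86) were most like Cebpb, Rasa4 (0.91) and Glul (0.89) most like Apoe, Cldn5 (0.89) and Ednrb (0.89) most like Fabp4, and Sat1 (0.87) and Atp6v1a (0.86) most like Plin2. The sums share libraries and depth, so these values describe likeness and carry no p.

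The comparison of CONT with ABL asked how reticular-like cells of ablated marrow carry the program 7 days on. UMIs were summed per library and tested in edgeR across 11390 genes with the replicate as a term, which leaves 1 residual degree of freedom, and p-values were adjusted by Benjamini-Hochberg. The F test adds a spread shared over genes, weighted at 19.3 prior degrees of freedom, so each p rests mostly on that shared spread. None of the 9 members passed an adjusted p of 0.05, where 2.72% of all genes did (310 of 11390, with 1.55% higher and 1.17% lower in ABL). At an unadjusted p of 0.05, 3 members passed (Lepr, Fabp4 and Plin2) beside 14.1% of all genes, and DESeq2 called 1 member, Lepr. Without the replicate term the 4 libraries gave 0 genes in edgeR (2.99% at an unadjusted p of 0.05). Fits that leave out 1 library cannot keep that term and leave 1 library in a condition. They measure no spread within that condition, so no member is named as called from them, and log2 fold changes quoted from them are sizes only.

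Lepr was lower in both ABL libraries, at 711 and 628 CPM, than in either CONT library, at 1241 and 2186 CPM. The fitted log2 fold change of ABL over CONT was -1.40 (SE 0.40, edgeR unadjusted p = 0.0022, adjusted p = 0.067), and within replicates the difference was -0.93 in replicate 1 and -1.84 in replicate 2 on the log2(CPM + 10) scale. The adjusted p was 1.6e-04 in DESeq2 and lay between 0.011 and 0.19 over the 15 alternatives that kept edgeR and the replicate term, passing 0.05 in 12 of them. All 15 reuse the same 4 libraries. In most of them the prior degrees of freedom were infinite, so a gene's own spread did not enter the p. In cells with a Y-linked UMI and no Xist UMI they were 63.1. The passes given for Lepr, Plin2 and Fabp4 are thus no separate support. Among cells with a Y-linked UMI and no Xist UMI, which numbered 296, 44, 467 and 192 in CONT1, ABL1, CONT2 and ABL2, the log2 fold change of Lepr was -1.46 (edgeR adjusted p = 0.19), and those of Plin2 and Fabp4 were 0.93 (adjusted p = 0.16) and 3.90 (adjusted p = 2.3e-04). The share of thinned reticular-like cells with a Lepr UMI was 87.7% in CONT1 and 96.2% in CONT2, against 71.1% in ABL1 and 64.0% in ABL2. Neutrophil-lineage cells carried a Lepr UMI in 11.9%, 8.47%, 8.12% and 2.80% of CONT1, CONT2, ABL1 and ABL2 cells. Before thinning, 91.9% to 99.7% of reticular-like cells carried Lepr. Lepr was lower in ABL in 5 of 6 reticular-like clusters of replicate 1 and in 6 of 6 of replicate 2. The clusters divide the cells of the same libraries and are not replicates.

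Plin2 was at 40.8 and 34.3 CPM in CONT and at 55.7 and 98.3 CPM in ABL, without overlap. Its log2 fold change was 0.91 (SE 0.25, edgeR adjusted p = 0.057), and 0.25 and 1.24 within replicates 1 and 2. It passed 0.05 in 13 of the 15 alternatives, with the limit given for Lepr, and the adjusted p lay between 5.2e-04 and 0.16. A Plin2 UMI was found in 7.20% and 5.01% of thinned CONT cells and in 10.4% and 9.42% of thinned ABL cells. Neutrophil-lineage cells held more Plin2, at 83.6 to 122 CPM and in 15.6% to 21.2% of thinned cells, so they give no background for this gene.

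Cebpb was at 3003 and 1491 CPM in CONT and at 1486 and 1262 CPM in ABL. The groups did not overlap, but ABL1 and CONT2 were nearly equal, and the log2 fold change of -0.73 (SE 0.41) had an edgeR adjusted p of 0.46. Within replicates it was -1.15 and -0.30. Apoe was higher in both ABL libraries, at 5013 and 5418 CPM against 4414 and 3755 CPM, with a log2 fold change of 0.26 (SE 0.44, edgeR adjusted p = 0.87). The CPM of the 2 ABL and 2 CONT libraries did not overlap for 4 of the 9 members (Lepr and Cebpb lower, Apoe and Plin2 higher) and for 28.8% of all genes tested (19.8% higher and 8.98% lower).

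Adipoq, Lpl, Cebpa and Pparg showed small differences whose direction was not the same in every fit or replicate. The log2 fold changes were -0.11 for Adipoq (SE 0.40), -0.19 for Lpl (SE 0.43), 0.10 for Cebpa (SE 0.26) and -0.04 for Pparg (SE 0.22), with edgeR adjusted p-values from 0.91 to 0.97. Adipoq moved by -0.21 in replicate 1 and 0.0016 in replicate 2. Such errors do not show that the levels were equal.

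**Figure D2:**
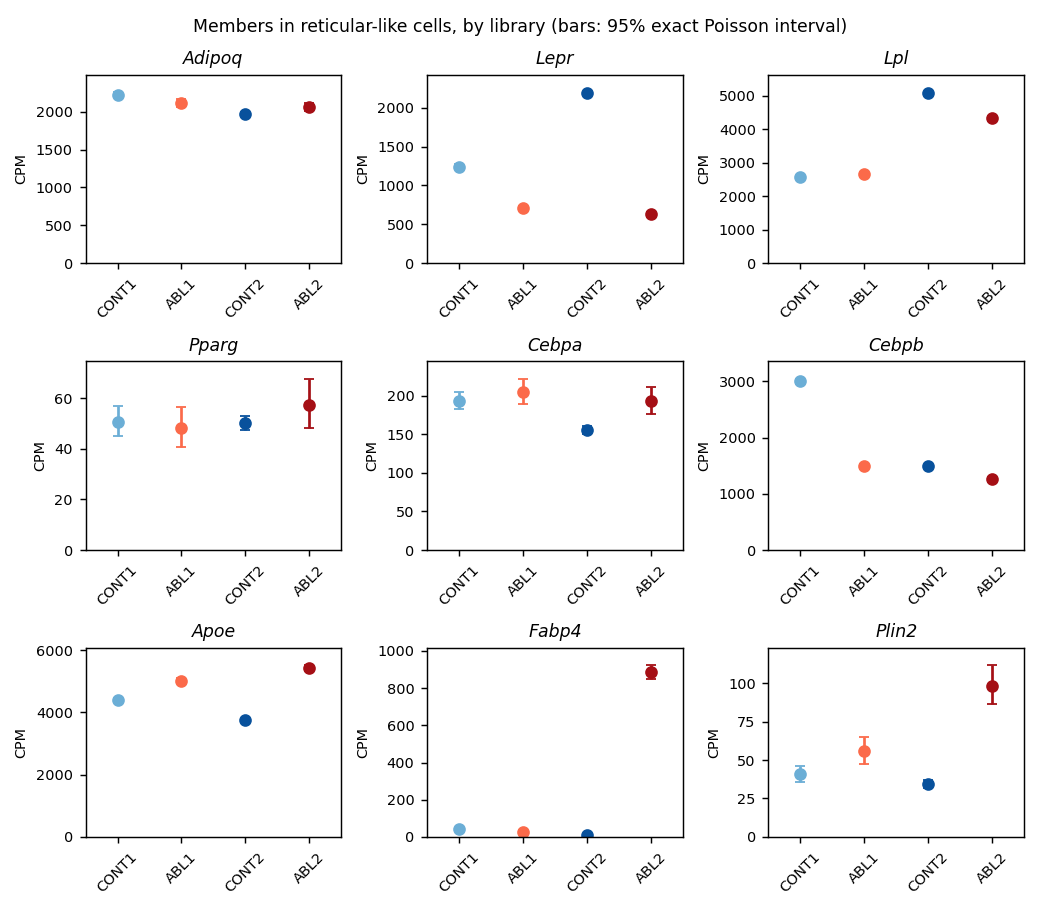
CPM of the 9 members in reticular-like cells (y axis from 0) for the 4 libraries, with bars for the 95% exact Poisson interval, which covers counting error only. Lepr is lower in ABL1 (711 CPM) and ABL2 (628 CPM) than in CONT1 (1241) and CONT2 (2186), and Fabp4 stands at 884 CPM in ABL2 alone.

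Fabp4 was at 42.5 CPM in CONT1, 28.7 in ABL1, 8.87 in CONT2 and 884 in ABL2. The fitted log2 fold change was 3.09 (SE 1.28, edgeR adjusted p = 0.26), and the within-replicate differences had opposite signs, -0.55 and 5.54. It passed 0.05 in 13 of the 15 alternatives, with adjusted p between 2.3e-10 and 0.45. Most of these left out the gene's own spread, as said for Lepr. The opposite signs of the replicates therefore did not widen the spread used there, and the passes are no support. Without ABL2, in a fit with no replicate term, the log2 fold change was 0.03. In ABL2, 10 of the 308 reticular-like cells held 86.9% of the 2186 Fabp4 UMIs, and the highest cell held 901. The top 10 cells held 34.9% in CONT1, 68.6% in ABL1 and 62.4% in CONT2.

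A threshold of 20 Fabp4 UMIs, set after the values were seen, left 11 cells in ABL2, 1 in CONT2 and 0 in the other libraries. In ABL2, 2 cells lay between 15 and 19 UMIs and 2 between 20 and 25. Without the 11 cells Fabp4 in ABL2 was at 115 CPM, still above the 3 other libraries, and Plin2 was at 93.2 CPM against 98.3 CPM with them. All 11 cells carried Adipoq UMIs (1672 CPM) and Lpl UMIs (5885 CPM), 10 carried Lepr (286 CPM), 10 Cebpa (328 CPM) and 9 Pparg (164 CPM). In the other reticular-like cells of ABL2 these genes were at 2088, 4203, 653, 184 and 49.8 CPM, in that order. Apoe was at 1714 CPM and Cebpb at 340 CPM in the 11 cells, against 5682 and 1327 CPM in the other reticular-like cells of ABL2. Cxcl12 was at 6717 CPM in the 11 cells and at 15287 CPM in the other reticular-like cells of ABL2. The endothelial markers Cdh5 and Pecam1 had 0 UMIs in them, and none of the 11 was called a doublet. The threshold is in UMIs as counted, and the 11 cells had a median of 15582 UMIs in all against 7469 in the other reticular-like cells of ABL2.

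These 11 cells also held 285 of the 288 UMIs of Car3 in ABL2 reticular-like cells, 18 of the 21 of Plin1, the lipid droplet protein of adipocytes, and 40 of the 55 of Cd36, a fatty acid transporter. The Car3 UMIs came from 4 of the cells and the Plin1 UMIs from 3. Car3, named after its values were seen, passed the test, but the filter on low counts kept it through the ABL libraries alone. Its p was thus favoured in advance and is not given. Car3 was also a leading gene of the osteoblast-like clusters. The pericyte gene Rgs5 was at 517 CPM in the 11 cells and at 30.8 CPM in the others, and its 85 UMIs in the 11 came from 1 cell, while Acta2 of smooth muscle was at 377 CPM in them, from 4 cells, and at 18.6 CPM in the others. Over all reticular-like cells the 6 mural markers summed to 161 and 142 CPM in CONT and to 203 and 255 CPM in ABL, with Cspg4 at 0 in CONT1. The 8 endothelial markers summed to 35.3 and 11.2 CPM in CONT and to 13.3 and 32.4 CPM in ABL, with Cdh5 and Kdr at 0 in ABL1. An unnamed mesenchymal cluster of replicate 2 was led by Spp1, Acta2, Rgs5, Tagln and Fabp4. The part of such cells in the Fabp4 level was not tested.

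**Figure D3:**
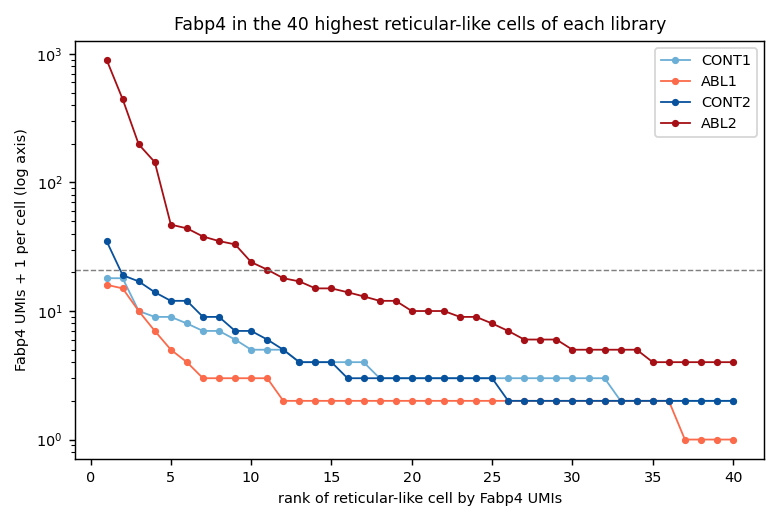
Fabp4 UMIs plus 1 per cell on a log axis for the 40 reticular-like cells with the most Fabp4 UMIs in each library (x axis, rank), with the dashed line at 20 UMIs. ABL2 has 11 cells at or above the line, up to 901 UMIs, and CONT2 has 1.

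Other genes of adipogenesis, lipid handling and adipokine signalling were read from 3 lists in the same fit, in which 2.72% of all genes passed and 14.1% did at an unadjusted p of 0.05. Of the 24 adipogenic regulators 20 were tested, and 1 fell (4 at an unadjusted p of 0.05), with a median log2 fold change of -0.16 beside -0.01 for all genes. Stat5a, a transcription factor downstream of cytokine receptors, fell from 71.2 and 100.3 CPM in CONT to 44.0 and 22.2 CPM in ABL (log2 fold change -1.49, SE 0.28, edgeR adjusted p = 0.0027). Of 31 lipid handling genes 25 were tested, and 2 rose (7 at an unadjusted p of 0.05), with a median of 0.22. For 1 of the 2, Cd36, the limit given below applies.

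Fabp5, a fatty acid binding protein, rose from 11.8 and 11.2 CPM to 25.01 and 136 CPM (log2 fold change 2.47, SE 0.39, edgeR adjusted p = 5.8e-04). Cd36 was the other gene that passed, and it is named after its values were seen, since it lay at 6.85 CPM on average. Its level was 1.71 and 0.042 CPM in CONT and 3.33 and 22.2 CPM in ABL. The filter on low counts kept it through the ABL libraries alone, so its p was favoured in advance and is not given. In ABL2 the 11 cells with at least 20 Fabp4 UMIs held 188 of the 337 Fabp5 UMIs, and without them Fabp5 was at 64.6 CPM. Within replicates 1 and 2 Fabp5 moved by 0.59 and 2.76, and Stat5a by -0.70 and -1.83. Neither is given for cells with a Y-linked UMI and no Xist UMI, and the part of sex in them was not tested. None of the 12 tested genes of the 16 of adipokine, leptin and insulin signalling passed in edgeR (3 at an unadjusted p of 0.05), with a median of -0.24. DESeq2 called 2 genes over the 3 lists.

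Genes of mature adipocytes were low, apart from Car3 in ABL2. Of 9 such genes 3 were tested, and Car3 alone passed, with the limit given above. Car3 was at 116 CPM in ABL2 against 0.211 to 6.67 CPM in the other libraries. Without the cells with at least 20 Fabp4 UMIs it was at 1.30 CPM in ABL2. Lep had 0 UMIs in the reticular-like cells of every library, Cidec had UMIs in ABL2 alone (2 UMIs), and Plin1 had 21 UMIs in ABL2, 2 in CONT2 and 0 in the others. The summed level of the 9 was 9.39 CPM in CONT1, 14.7 in ABL1, 5.96 in CONT2 and 138 in ABL2. Car3 made up most of the sum in ABL2, where Plin1 was at 8.49, Slc2a4 at 6.07, Lipe at 4.85 and Cfd at 1.62 CPM. Adig and Retn had 0 UMIs in ABL2, against 17 Adig UMIs and 1 Retn UMI in CONT2. Of 16 genes known to respond to tissue dissociation, 3 fell (Hspa1a, Hspa1b and Atf3, named after their values were seen) and none of the others passed, and the summed level was 17207 and 20509 CPM in CONT and 12247 and 13004 CPM in ABL. Their part in the values of Cebpb or Lepr was not tested. Neutrophil markers summed to 10127 and 141 CPM in the CONT libraries and to 5977 and 108 CPM in ABL, and differed more by replicate than by condition. Erythroid markers lay at 5142 and 115 CPM in CONT and at 4871 and 943 CPM in ABL, higher in replicate 1, and higher in ABL2 than in CONT2. Monocyte/macrophage markers summed to 24.9 and 4.14 CPM in CONT and to 71.4 and 10.1 CPM in ABL, higher in ABL within each replicate. Their part in the values of Apoe or Plin2 was not tested.

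The members differed between the reticular-like clusters too, which divide the same libraries and are not replicates. In replicate 1, Cebpb ran from 1150 to 4687 CPM over the 6 clusters of CONT1 and from 514 to 2091 CPM over those of ABL1, lower in ABL1 in 6 of 6. In replicate 2 it was lower in ABL2 in 5 of 6 clusters. Its lowest level in CONT2 was 676 CPM, in the cluster led by the heat shock genes Hspa1b and Hspa1a, and its highest 3264 CPM, in the cluster led by Zfp36 and Socs3. In that last cluster Adipoq was at 1126 CPM in CONT2 and 239 CPM in ABL2, where 15 cells were counted, against 2023 to 2673 CPM in the 3 largest clusters of ABL2. Fabp4 in ABL2 reached 4317 CPM in the cluster led by Cxcl10 and Cxcl9, which held 22 cells, and Plin2 was higher in ABL2 than in CONT2 in 6 of 6 clusters.

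Whether reticular-like cells that carry pre-osteoblast transcripts hold less of the program was asked by splitting them on a UMI of Alpl, Sp7 or Postn after thinning. Such cells made up 8.92% of reticular-like cells in CONT1, 5.89% in CONT2, 41.8% in ABL1 and 32.8% in ABL2. Free RNA can also give a cell such a UMI, and its part in these shares was not tested. The 6 pre-osteoblast markers, which include all 3 genes, summed to 1072 and 1020 CPM in CONT and to 2789 and 1892 CPM in ABL reticular-like cells. The 8 osteoblast markers, Bglap and Ibsp among them, lay the other way, at 3945 and 7628 CPM in CONT and at 3042 and 2494 CPM in ABL reticular-like cells. Apoe was lower in the cells with a pre-osteoblast UMI in 4 of 4 libraries, with Poisson intervals apart in 4 of 4, as at 4866 against 6029 CPM in ABL2. Lpl was lower in 4 of 4 and apart in 3, at 2247 against 3393 CPM in ABL1. Adipoq was lower in 3 of 4 and apart in those 3, at 1584 against 2273 CPM in ABL2, but at 2030 against 1907 CPM in CONT2.

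Lepr and Pparg were lower in the cells with a pre-osteoblast UMI in 4 of 4 libraries, with overlapping intervals in each, and Cebpb was lower in 4 of 4 with intervals apart in 2. Cebpa was lower in 3 of 4 and Plin2 in 1 of 4, with no intervals apart, and Fabp4 in 2 of 4, at 144 against 626 CPM in ABL2. Cxcl12 followed the same direction in 4 of 4, apart in 2, so a lower level was not particular to the members. Within the cells without a pre-osteoblast UMI, Lepr was at 1301 and 2217 CPM in CONT and at 857 and 715 CPM in ABL. They are most of the same reticular-like cells, so this order is no separate support. These are counting intervals within a library and not a test between conditions.

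**Figure D4:**
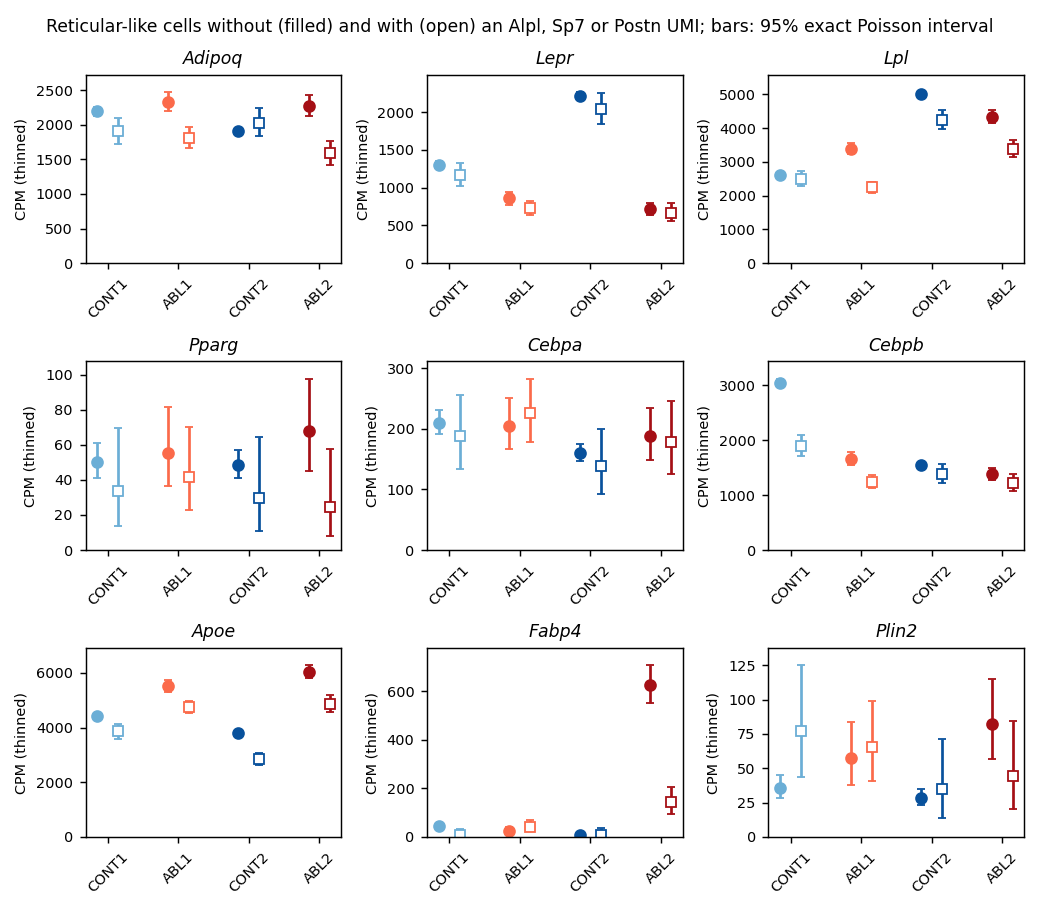
CPM of the 9 members in reticular-like cells thinned to 2000 UMIs, without (filled circles) and with (open squares) a UMI of Alpl, Sp7 or Postn, by library, with 95% exact Poisson intervals. Apoe is lower in the cells with such a UMI in all 4 libraries, and Lepr is lower in ABL1 and ABL2 in both kinds of cell.

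Summed over all mesenchymal cells, 7 members were lower in both ABL libraries, and these levels also move with the share of reticular-like cells, which was lower in ABL. Adipoq was at 1939 and 1809 CPM in CONT and at 1186 and 214 CPM in ABL, and 93.0% to 97.0% of its UMIs came from reticular-like cells. Lepr was at 1114 and 2138 CPM in CONT and at 446 and 73.7 CPM in ABL. Lpl, Pparg, Cebpa, Cebpb and Apoe were also lower in both ABL libraries than in either CONT library, and Fabp4 and Plin2 were higher, so all 9 members fell in groups that did not overlap, as did 40% of the 13641 genes tested (21.4% higher and 18.6% lower).

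None of the 9 passed the edgeR test, where 1.02% of genes did (0.821% higher and 0.198% lower). At an unadjusted p of 0.05, 4 members and 13.3% of genes passed, and DESeq2 called 3 members (Adipoq, Lepr and Fabp4). The log2 fold change was -3.12 for Lepr (SE 1.05, edgeR adjusted p = 0.20) and -1.93 for Adipoq (SE 0.92, edgeR adjusted p = 0.40). On simulated counts of this comparison, 7% of genes given a log2 fold change of 2 were recovered, and in the simulation of reticular-like cells 100% of these and 54% of those given a log2 fold change of 1. Simulated spread followed the trend over all genes, and only genes above a set level were changed. These shares therefore do not carry over to a single member with a wider spread, such as Fabp4. The share of reticular-like cells and the level in them were not separated in these sums. Adipoq, at 1976 to 2226 CPM within reticular-like cells of all 4 libraries, and Apoe, higher there in ABL, were both lower in the ABL sums.

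**Figure D5:**
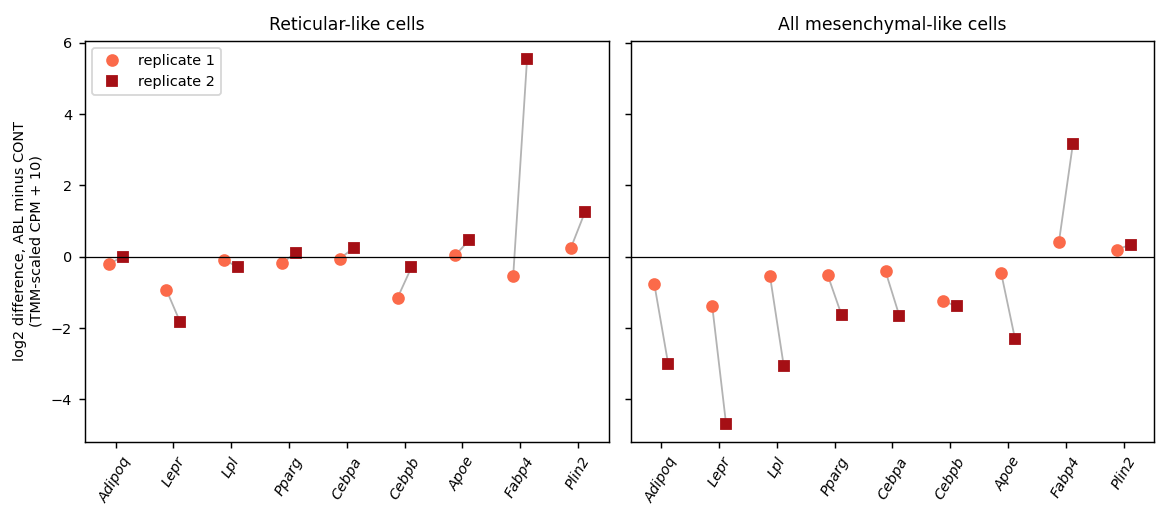
Log2 difference of ABL minus CONT (y axis, TMM-scaled CPM + 10) for the 9 members within replicate 1 (circles) and replicate 2 (squares), in reticular-like cells and in all mesenchymal cells. In reticular-like cells Adipoq lies at -0.21 and 0.0016 and Lepr at -0.93 and -1.84, while in all mesenchymal cells Adipoq lies at -0.78 and -3.02.

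Whether the change in reticular-like cells differed from that in neutrophil-lineage cells, which lay in every library, was tested with a term for the difference. None of the 9 members passed, nor did any of the 11556 genes (0%). At an unadjusted p of 0.05, 0 members and 40 genes (0.346%) passed in edgeR, the only tool used for this test. That is fewer than the threshold alone would pass, so a member that did not pass is not read as a result. The fit had library as a block and no term for a class difference that varies with the replicate or kit. The part of this in the p-values was not tested. For Lepr the difference of the log2 changes was 0.28 (SE 0.94), and the within-replicate changes in neutrophil-lineage cells were -0.14 and -2.77. Adipoq moved in those cells by -0.18 and -2.35, Lpl by 0.10 and -2.86, and Apoe by 0.80 and -2.52. The fall in replicate 2 was thus not particular to Lepr, though Fabp4 and Plin2 moved by 0.089 and 0.54 there. Lepr in droplets with at most 300 UMIs, which hold free RNA, was at 475 and 1132 CPM in CONT and at 258 and 103 CPM in ABL, so the RNA outside cells moved the same way. Since the Lepr UMIs of neutrophil-lineage cells are read as free RNA, the test does not bear on whether the lower Lepr was particular to reticular-like cells. With free RNA subtracted from both classes the difference was -0.45 (SE 1.26).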

How the data were processed

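The deposited values are UMI counts, not normalized, which the authors made with Cell Ranger on mm10 with transgene sequences added. The members and gene lists were chosen with earlier results of these data known. Cells were barcodes that passed a minimum of 500 genes (v2) or 1000 genes (v3), a maximum of 20% (v2) or 15% (v3) of mitochondrial UMIs, and a UMI minimum set for each library by dividing the 99th percentile of its 3000 deepest barcodes by 10. No doublets were removed. Cells were clustered in Seurat 5.3.0 (2000 variable genes, 30 components, resolution 0.8) by library, and mesenchymal cells again after CCA integration within each replicate, leaving out the members and the pathway lists. Clusters were named from fixed markers (score at least 0.35, margin 0.1, thresholds set after the data were seen). A cluster with more markers of another class than its own among its 10 leading genes stayed unnamed, not counting markers found in a like share of the other cells unless there were 3 or more. So a reticular-like cluster of 388 cells in replicate 1, led by Hba-a2 and Hba-a1, kept its name, since Hba-a1 had UMIs in 100% of its cells and 99.9% of the other mesenchymal cells. The summed counts of each class and library entered edgeR 4.0.16, with TMM scaling, filterByExpr, the F test of its quasi-likelihood fit, Benjamini-Hochberg adjustment and replicate as a term. The test of the difference between reticular-like and neutrophil-lineage cells instead had library as a block, with terms for class and for class by condition. The labels do not say how the mice were divided between libraries, and p-values refer to these libraries only. In edgeR they rest mostly on a spread shared over genes, and little on each gene's own spread between the libraries. For reticular-like cells the shared part had 19.3 prior degrees of freedom beside 1 residual degree of freedom. Standard errors are the absolute log2 fold change over the square root of F. DESeq2 1.42.0 was an alternative. The test was tried on simulated counts with 200 changed genes.

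Levels are CPM with 95% exact Poisson intervals. Shares come from cells thinned to 2000 UMIs, with no cell left out. Intervals cover counting error only. With 2 libraries per condition an exact permutation test cannot give a two-sided p under 0.333, so single values were not tested. CONT and ABL of a replicate deviated together from their group means (r = 0.73 in reticular-like and 0.38 in all mesenchymal cells), which includes the shared chemistry. The pairing comes from the replicate number in the labels and the contralateral femur of the study's methods, and Xist, in 69.0% of CONT2 and 0.325% of ABL2 reticular-like cells, goes against shared mice in replicate 2. The replicate term there stands for the kit and number only. The genes named were the members, list genes past the threshold with at least 20 CPM on average (at most 10 in each direction), the 2 genes most like each member, and tdTomato. Free RNA was taken from droplets with at most 300 UMIs. Gene positions are those of GENCODE M21 on GRCm38.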

Additional observations from a re-analysis of the deposited data

How the results depend on the processing

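Counts of genes at an adjusted p of 0.05 moved with most settings. In reticular-like cells 310 genes passed, and with no replicate block 0 did. DESeq2 gave 167, DESeq2 size factors 524, no TMM 578, no low-count filter 508, free RNA subtracted 521, cells with a tdTomato UMI 562, cells with a Y-linked UMI and no Xist UMI 185, the study's filter alone 578, the stricter filter 499, resolution 0.4 507 and all variable genes kept in the clustering 520. Leaving out 1 library in turn, which also drops the replicate block, gave 0 to 28. The share of calls that were higher in ABL was 57.1%, and 67.3% with no TMM.

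Of the 9 members, 0 passed, and 3 did with DESeq2 size factors, no TMM, no low-count filter, free RNA subtracted, tdTomato cells, doublets removed, the study's filter, the stricter filter, resolution 0.4 and all variable genes. Resolution 1.5 and no integration gave 2, DESeq2 and the Y-linked cells 1, and leaving out a library 0 to 1. Of the alternatives chosen after seeing the data, naming clusters by score alone gave 0, and leaving out the cluster with a leading erythroid marker gave 3, with 526 genes in all and 5 on the pathway lists. The prior degrees of freedom were 19.3 in the reported fit and infinite in most of these settings, and the cause was not tested. Of the 3 called genes on the pathway lists, no replicate block left 0, DESeq2 size factors gave 5, no low-count filter, doublets removed and resolutions 0.4 and 1.5 gave 6, and no TMM, tdTomato cells, the study's filter and all variable genes gave 7, with 0 to 2 without a library.

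In all mesenchymal cells 139 genes passed, against 0 with no replicate block or with DESeq2 size factors, 507 in DESeq2, 621 with no TMM, 918 with no low-count filter, 678 in the Y-linked cells, 777 with doublets removed, 72 under the study's filter and 669 under the stricter one, with 0 to 392 without a library. The share higher in ABL was 80.6%, and 68.1% with no TMM. Members passing were 0, against 3 in DESeq2, with no low-count filter and with doublets removed, 2 in the Y-linked cells and 1 with no TMM.

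Small differences changed sign. For Pparg in reticular-like cells (-0.04) the log2 fold change was 0.062 with no TMM, 0.061 with doublets removed, 0.018 with free RNA subtracted, 0.017 under the study's filter, 0.44 in the Y-linked cells, 0.047 with no integration, 0.00075 at resolution 0.4 and 0.0018 with all variable genes, and it ran from -0.23 to 0.15 without 1 library, highest without ABL1. Leaving out 1 library gave -0.69 to 0.36 for Lpl, above 0 without ABL1 and without CONT2, and -0.051 to 0.22 for Cebpa, below 0 without CONT2. With free RNA subtracted, the difference between reticular-like and neutrophil-lineage cells was -0.45 for Lepr and -0.17 for Pparg. The causes were not tested. With 2 libraries per condition and the replicate term, 1 residual degree of freedom remained.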
